A study of Mus musculus with 19 samples.

Results

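In hybrid mice of 5 Prdm9 genotypes, 292 of 71181 autosomal meiotic double-strand break (DSB) hotspots carried the mark KO in place of the name of a PRDM9 allele. They were taken as every hotspot with that mark on chromosomes 1 to 19 in the 5 hotspot tables, a rule that uses the mark alone. The mark is not spelled out in the sources used here. Joined within 500 bp, the hotspots fell at 102 positions, of which 71 were marked in both crosses. They were weak, with median DMC1 signals between 11.1 and 15.2, and most had little H3K4me3. They recurred between males that had no Prdm9 allele in common, a setting in which few of the other hotspots did.

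PRDM9 is a DNA-binding histone methyltransferase that sets the sites of meiotic recombination in mice. Its zinc-finger array recognizes a sequence motif, its methyltransferase domain places H3K4me3 on the surrounding nucleosomes, and breaks then form beside the bound site. Alleles with different arrays direct breaks to largely different places. In mice without PRDM9, breaks still form but move to other sites that carry H3K4me3, such as promoters and enhancers. Once a break is resected, its single strands are covered by the recombinase DMC1. Precipitation of DMC1 followed by single-stranded DNA sequencing (SSDS) maps breaks genome-wide, and the strength of a hotspot in this assay is called heat.

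All males were adult F1 hybrids between C57BL/6J (B6) and a distant mouse, and whole testis was used. B6xSPRETUS males had 1 Prdm9 allele from SPRET/EiJ (SPRT) and the other from a B6 mother, either the B6 allele (B6/SPRT), the humanized allele (Hum/SPRT) or the CAST allele (CAST/SPRT). B6xSTUS males paired the allele of STUS/Jpia, a wild-derived strain of M. m. musculus, with the B6 (B6/STUS) or the humanized allele (Hum/STUS), named here in the order of the labels. The humanized and CAST alleles are B6 Prdm9 genes whose zinc-finger array was exchanged for that of the human B allele or of M. m. castaneus, so the rest of the protein is that of B6. There was 1 DMC1 library per genotype, and H3K4me3 ChIP and input samples of B6/SPRT (2 each), Hum/SPRT (3 each) and CAST/SPRT (2 each), for 19 samples in all. The tables list H3K4me3 only for the 3 SPRT genotypes and in a single column per genotype, so neither assay gives a replicate error between genotypes. None of these samples measures expression, so the tissue could not be checked against marker genes. Read totals are unknown and the scaling of heat to depth is not stated, which is why each library was compared with its own other hotspots.

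KO hotspots were a small class in each library. B6/SPRT held 50 among 18522 autosomal hotspots, 0.27% (95% Wilson interval 0.205 to 0.356%). Hum/SPRT held 75 of 15727, 0.477% (0.381 to 0.597%), and CAST/SPRT held 41 of 9592, 0.427% (0.315 to 0.579%). In the other cross B6/STUS held 59 of 17309, 0.341% (0.264 to 0.439%), and Hum/STUS held 67 of 10031, 0.668% (0.526 to 0.847%). Within each cross the library with the humanized allele held the highest number, a difference that could not be tested with 1 library per genotype, and the intervals cover counting error only. Of all DMC1 heat on the autosomes the KO hotspots carried 0.0639% in B6/SPRT, 0.147% in Hum/SPRT, 0.194% in CAST/SPRT, 0.0884% in B6/STUS and 0.266% in Hum/STUS. In each library their share of the heat was below their share of the hotspots.

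The members nearest to genes illustrate what the class holds at promoters. Only 4 of the 102 positions lay within 1 kb of the start of a gene in the RefSeq promoter table, and these were the starts of Scai, Lztfl1, Fyco1 and Tmem267, all protein-coding. Scai encodes a suppressor of cell invasion that acts as a transcriptional cofactor, Lztfl1 a regulator of ciliary trafficking, Fyco1 an adaptor of autophagosome transport and Tmem267 a membrane protein. The 250 bases before each start are shown 5′ to 3′ on the strand of the gene (RefSeq, GRCm38.p6), because a KO center lay within 1 kb of these starts. They are promoter sequence and were not chosen as hotspot sequence. The KO center of B6/SPRT near Fyco1 (123851708) lay within the window shown, and the other KO centers near these starts lay outside it. Capitals mark matches to 7 short motifs searched on both strands: GGGCGG (the GC box), CCAAT (bound by NF-Y), CGGAAG (the core of ETS family sites), GCATGCG (part of the NRF1 site), TGACGTC (the cyclic AMP response element), ATGGCGG (a core of YY1 sites) and TATAAA (the TATA box).
Scai, minus strand, chr2:39190731-39190980: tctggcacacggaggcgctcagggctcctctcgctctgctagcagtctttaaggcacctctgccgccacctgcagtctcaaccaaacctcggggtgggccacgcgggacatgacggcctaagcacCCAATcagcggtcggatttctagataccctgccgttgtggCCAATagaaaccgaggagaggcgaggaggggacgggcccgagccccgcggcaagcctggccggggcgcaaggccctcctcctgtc
Lztfl1, minus strand, chr9:123717626-123717875: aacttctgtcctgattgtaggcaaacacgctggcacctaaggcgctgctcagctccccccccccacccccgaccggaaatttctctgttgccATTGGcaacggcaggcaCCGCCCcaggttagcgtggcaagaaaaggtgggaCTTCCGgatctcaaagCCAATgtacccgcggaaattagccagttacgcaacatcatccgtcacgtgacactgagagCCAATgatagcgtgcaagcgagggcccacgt
Fyco1, minus strand, chr9:123851662-123851911: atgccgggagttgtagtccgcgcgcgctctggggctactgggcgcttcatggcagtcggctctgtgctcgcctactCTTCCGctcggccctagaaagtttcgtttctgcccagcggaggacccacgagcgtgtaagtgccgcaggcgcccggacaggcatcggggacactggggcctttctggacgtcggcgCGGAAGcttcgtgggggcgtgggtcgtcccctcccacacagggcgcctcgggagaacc
Tmem267, plus strand, chr13:119488223-119488472: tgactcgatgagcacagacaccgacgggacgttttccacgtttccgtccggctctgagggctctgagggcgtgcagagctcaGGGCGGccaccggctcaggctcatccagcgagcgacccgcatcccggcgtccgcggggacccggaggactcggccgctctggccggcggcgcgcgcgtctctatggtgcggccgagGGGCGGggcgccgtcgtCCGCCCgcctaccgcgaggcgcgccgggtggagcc
GGGCGG was present in 2 of the 4 windows (Lztfl1 and Tmem267) and in 33.0% of the 31396 autosomal promoter windows of the same length. CCAAT was present in those of Scai and Lztfl1 (33.7% of all) and CGGAAG in those of Lztfl1 and Fyco1 (13.7% of all). The remaining motifs had no match in these windows, against 3.01% of all windows for GCATGCG, 2.82% for TGACGTC, 2.21% for ATGGCGG and 12.4% for TATAAA. The windows held 19, 16, 27 and 39 CG dinucleotides in the order shown, where the median of all windows was 6 and the upper quartile 16. With 4 windows this is a description of sequence only.

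H3K4me3 was listed at the promoters of Scai, Lztfl1 and Fyco1, where it was high and came from both homologs. Near Scai the KO hotspot was centered at 39191112 in B6/SPRT and at 39191187 in Hum/SPRT, with heats of 23.96 and 16.02 and enrichments over input of 33.2 and 17.3. Near Lztfl1 the centers lay between 123717453 and 123717556, with heats of 37.2 in B6/SPRT, 39.9 in B6/STUS and 16.7 in Hum/SPRT, and its enrichments in the SPRT males were 65.6 and 44.5. Near Fyco1 they lay between 123851355 and 123851708, with heats of 58.2, 45.2 and 26.7 in the same libraries and enrichments of 53.8 and 37.8. The 3 promoters therefore stood far above the median KO hotspot in H3K4me3, and between 52.7 and 65.4% of their SNP-carrying H3K4me3 reads came from the B6 chromosome. The position near Tmem267 was marked only in the STUS libraries, which have no H3K4me3 values, with a heat of 299 in B6/STUS and 41.3 in Hum/STUS, and its DMC1 reads were 61.8 and 64.8% of B6 origin. No KO hotspot of CAST/SPRT lay within 1 kb of a listed start.

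Such promoters were rare in the class. Within 1 kb of a gene start lay 3 of 50 KO hotspots in B6/SPRT (6%, all hotspots 1.85%), 3 of 75 in Hum/SPRT (4%, 1.7%), 0 of 41 in CAST/SPRT (1.74%), 3 of 59 in B6/STUS (5.08%, 2.19%) and 1 of 67 in Hum/STUS (1.49%, 1.72%). The mean difference between KO and other hotspots was 1.48 percentage points ± 2.41 (SD, n = 5 libraries), which was not beyond the spread between libraries (p = 0.25, exact two-sided sign-flip permutation over libraries, Benjamini-Hochberg adjusted p = 0.3 over 6 tests). It turned to -0.17 with a limit of 2 kb. The promoter table covers 79.6% of autosomal protein-coding genes and none of chromosome 18, where no KO hotspot lay.

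Away from promoters, KO hotspots lay farther from genes than the other hotspots of their library. The median distance to the nearest gene start was 94.4 kb in B6/SPRT, 98.3 kb in Hum/SPRT, 76.7 kb in CAST/SPRT, 90.3 kb in B6/STUS and 126 kb in Hum/STUS, against 31.1 to 33.8 kb for the other hotspots. Between 31.3 and 34.7% of the KO hotspots of a library lay over an annotated gene, whereas the figure for all hotspots was 61.1% in B6/SPRT, 62.5% in Hum/SPRT, 62.1% in CAST/SPRT, 59.7% in B6/STUS and 61.5% in Hum/STUS. Counting each position once gave 35 of 102 over a gene, and 50 of the 102 were more than 100 kb from a listed start. These shares are not independent between libraries, because many positions are the same.

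The positions were spread over 18 of the 19 autosomes, with no KO mark among the 2781 hotspots of chromosome 18. Chromosome 9 held the most, with 13 positions and 32 KO hotspots, 0.809% of its hotspots in the 5 tables. Chromosome 7 held 31 KO hotspots at 7 positions (0.800%), whereas chromosome 19 held 3 (0.144%). On distal chromosome 9, 4 positions with 12 KO hotspots lay within 538 kb, from 123717453 to 124255309, and this stretch includes the starts of Lztfl1 and Fyco1.

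The DMC1 signal of KO hotspots lay close to the lowest heats that the tables list. The median heat was 11.1 in B6/SPRT, 14.1 in Hum/SPRT, 13.1 in CAST/SPRT, 12.1 in B6/STUS and 15.2 in Hum/STUS. The other autosomal hotspots of the same libraries had medians of 54.7, 42.9, 26.3, 47.0 and 34.1. In each of the 5 libraries the KO median was the lower of the pair, with log2 differences of -2.30, -1.60, -1.002, -1.95 and -1.17. The mean log2 difference of -1.60 ± 0.54 (SD, n = 5 libraries) gave p = 0.0625 in an exact two-sided sign-flip permutation, the smallest p that 5 libraries allow, and an adjusted p of 0.3. Against the hotspots without an assigned allele alone it was -0.90, and among hotspots with heats of at least 20 it was -0.54. Since the recurring positions enter several libraries, these are not 5 independent sets of sites.

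**Figure D1:**
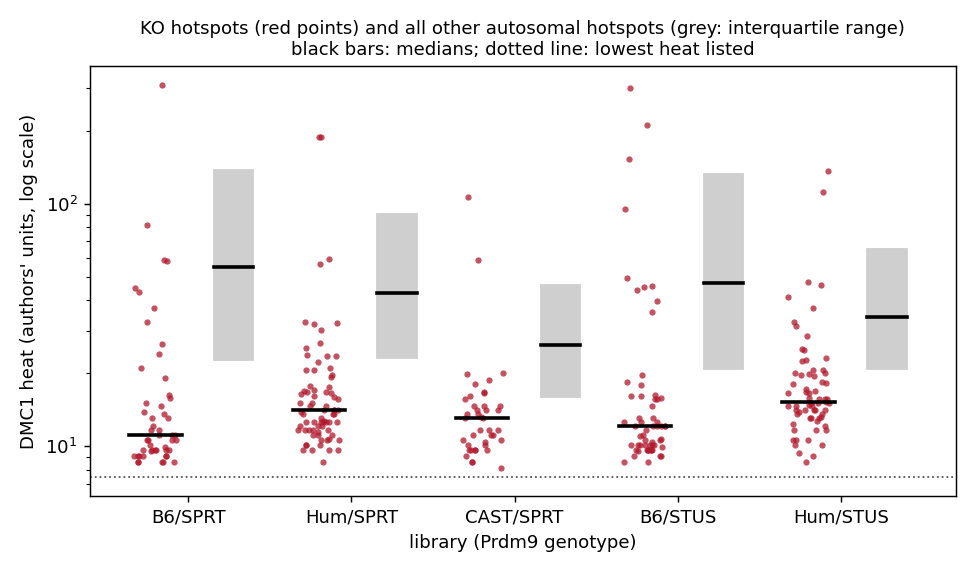
DMC1 heat (vertical, log scale, authors' units) of each KO hotspot (red points) in the 5 libraries, beside the interquartile range (grey boxes) and medians (black bars) of all other autosomal hotspots. The KO medians lie between 11.1 and 15.2, below each grey box, and the highest KO hotspot of each library lies between 107 and 308.

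Heats under 20 were the rule among KO hotspots. They were found at 39 of 50 in B6/SPRT (78.0%, all hotspots 21.2%), 58 of 75 in Hum/SPRT (77.3%, 19.1%), 38 of 41 in CAST/SPRT (92.7%, 36.2%), 49 of 59 in B6/STUS (83.1%, 23.8%) and 49 of 67 in Hum/STUS (73.1%, 23.1%). Hotspots without an assigned allele were also weaker than the bulk but less so, with median heats of 19.6, 27.5, 23.7, 29.0 and 22.9 in the same order and 51.3, 33.7, 41.8, 36.8 and 42.8% of them under 20. The KO distribution had a short middle and a long upper tail. Its interquartile range ran from 9.63 to 16.2 in B6/SPRT and from 13.2 to 20.1 in Hum/STUS, while the highest KO heat was 308 in B6/SPRT, 189 in Hum/SPRT, 107 in CAST/SPRT, 299 in B6/STUS and 136 in Hum/STUS.

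The heats of KO hotspots fell on a grid more often than those of other hotspots. A heat that is a whole multiple of 0.125, within 1e-06 of a step, was listed at 34 of 50 KO hotspots in B6/SPRT (all hotspots 2.32%), 48 of 75 in Hum/SPRT (2.09%), 30 of 41 in CAST/SPRT (4.86%), 40 of 59 in B6/STUS (1.91%) and 39 of 67 in Hum/STUS (3.63%). Among other hotspots with a heat under 20 the shares were 8.78, 8.53, 11.1, 6.53 and 13.9%. How the heat of a hotspot was computed is not stated in the sources used here, and the part of this pattern in the medians above was not tested.

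The hottest KO hotspots were at a handful of positions of different kinds. In B6/SPRT it was the one at 9797576 on chromosome 10, within Stxbp5, a gene for a syntaxin-binding protein of vesicle release. Its heat was 308 in B6/SPRT, 189 with the humanized allele and 58.9 with the CAST allele, and it was not marked in either STUS library. Its breaks were almost all on the B6 homolog, with 100, 98.8 and 98.4% of DMC1 reads, and its H3K4me3 enrichment was 19.2, 11.5 and 62.2. In Hum/SPRT the highest heat of 189 was on chromosome 15 at 75086388, 25.5 kb from the start of Ly6c2, a lymphocyte antigen gene of a tandem family. The input coverage there was 3324, against a median of 26 at the other hotspots of that library, and its ChIP coverage of 23009 gave an enrichment of 22.4. The highest KO heat of Hum/STUS, 136, was nearby at 75086891, just past the joining distance of 500 bp. In CAST/SPRT the highest heat of 107 was at 19418332 on chromosome 14, where the input coverage was 2192, and the same position had a heat of 153 in B6/STUS. Tmem267, described above, held the highest heat of B6/STUS. The position near Tmem267 lies at a promoter, that in Stxbp5 had no unusual input, and those on chromosomes 14 and 15 stood far above the usual input coverage.

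Most KO hotspots were found at the same place in another library. Here a hotspot recurred when the center of a hotspot of another table lay within 500 bp. This held for 46 of 50 KO hotspots in B6/SPRT (92.0%, all hotspots 71.6%), 64 of 75 in Hum/SPRT (85.3%, 83.8%), 38 of 41 in CAST/SPRT (92.7%, 65.6%), 58 of 59 in B6/STUS (98.3%, 44.7%) and 62 of 67 in Hum/STUS (92.5%, 72.5%), which makes 268 of 292 (91.8%). High recurrence was not particular to KO hotspots. Hotspots of the SPRT allele recurred at 99.9% in B6/SPRT and Hum/SPRT and 99.98% in CAST/SPRT. Those of the STUS allele recurred at 44.3% in B6/STUS and 96.3% in Hum/STUS. The other named alleles lay between 23.3 and 84.2%, and hotspots without an assigned allele between 9.78 and 33.6%. The authors assigned alleles by comparing hotspots with those of other mice, so recurrence may have entered the mark, and these shares are a description without a test.

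The pairs of libraries that share no Prdm9 allele showed the contrast most plainly. Few of all hotspots recurred between such males, from 0.880 to 9.43% over 8 directed comparisons. The KO hotspots recurred at 47.8 to 78.0%. Of the 50 KO hotspots of B6/SPRT, 32 (64.0%) were found again in Hum/STUS, where 0.88% of all B6/SPRT hotspots were. Of the 75 of Hum/SPRT, 45 (60%) were found again in B6/STUS, against 1.46% of all. Of the 41 of CAST/SPRT, 32 (78.0%) were found again in Hum/STUS, against 5.77% of all. Between libraries with an allele in common the KO shares were 38.7 to 74.6% over 12 directed comparisons, a range similar to that without one, while the shares for all hotspots rose to between 19.99 and 61.5%. For example, 37 of the 50 B6/SPRT hotspots (74.0%) were found again in Hum/SPRT, against 52.2% of all. Hum/SPRT into B6/SPRT was the 1 comparison of these 12 in which the KO share (49.3%) lay below that of all hotspots (61.5%). The hotspot met in the other table also had the mark KO in each of the 442 and 278 matches of these pairs, which a comparison with 1 list of positions would give by itself.

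**Figure D2:**
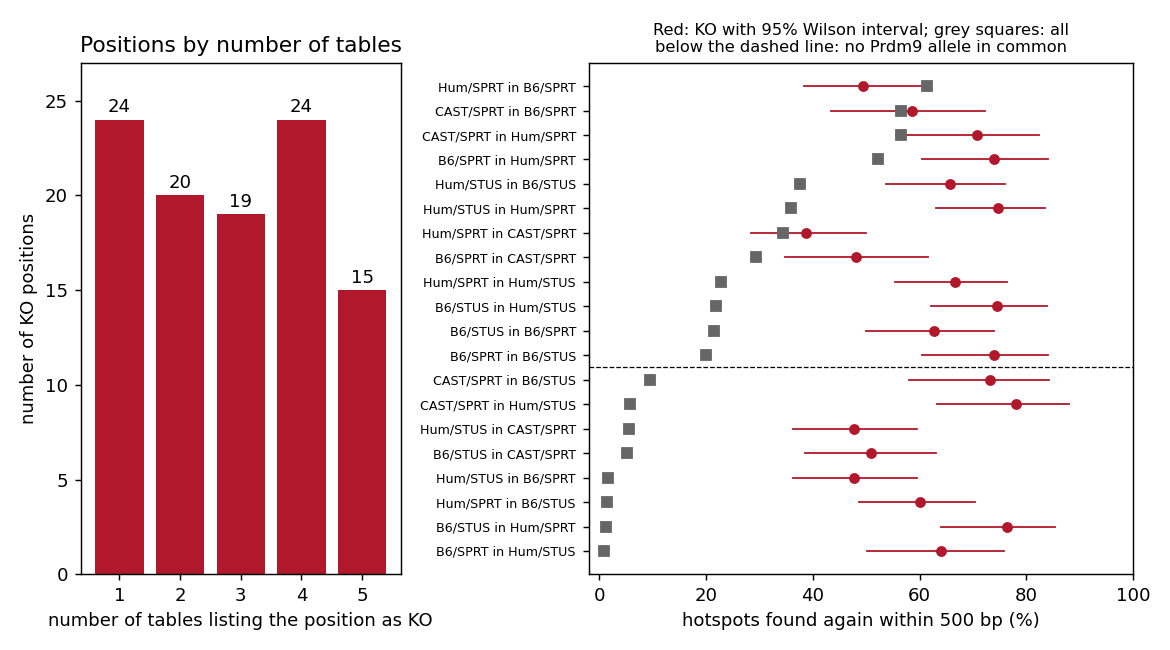
Left, the number of KO positions by the number of tables that list them (24, 20, 19, 24 and 15 positions in 1 to 5 tables). Right, for each directed pair of libraries, the percent of KO hotspots (red, 95% Wilson interval) and of all autosomal hotspots (grey squares) found again within 500 bp, with the 8 pairs without a common Prdm9 allele below the dashed line, where KO shares are 47.8 to 78.0% and those of all hotspots 0.880 to 9.43%.

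Joined across tables, the 292 KO hotspots made 102 positions, of which 24 were in 1 table, 20 in 2, 19 in 3, 24 in 4 and 15 in all 5. Both crosses shared 71 positions (69.6%), with 21 marked only in SPRT males and 10 only in STUS males. These numbers depend on the joining distance of 500 bp. In 4 cases a position marked only in SPRT males lay within 1 kb of a position marked only in STUS males. A distance of 1 kb would join each of these pairs into 1 position marked in both crosses. Where a position was in 4 tables, the one missing was CAST/SPRT at 8, B6/SPRT at 7, Hum/SPRT at 5 and each STUS library at 2 positions. Hum/SPRT listed 11 of the 24 positions that were in a single table, and B6/STUS listed 1. The centers of a recurring position spanned 174 bp in the median and at most 548 bp. Across the tables that list it, the highest heat of a position was a median of 1.53 times the lowest, and under 2 times at 61 of 78 recurring positions.

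The 15 positions marked in all 5 tables were uniformly weak. Their median heat was 10.6 in B6/SPRT, 16.6 in Hum/SPRT, 14.6 in CAST/SPRT, 12.1 in B6/STUS and 16.6 in Hum/STUS, and the highest of the 75 heats was 28.6. The highest heat of a position was in Hum/STUS at 10 of them, in Hum/SPRT at 4 and in CAST/SPRT at 1, and the lowest was in B6/SPRT or B6/STUS at all 15. Since the scaling between libraries is not stated, this order describes the libraries as well as the sites.

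**Figure D3:**
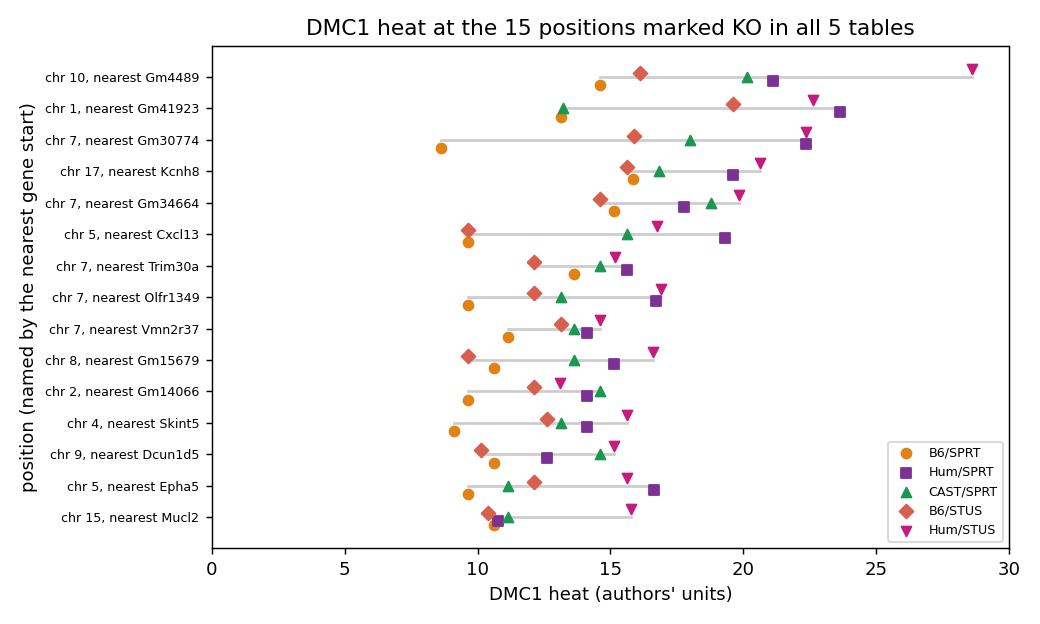
DMC1 heat (horizontal, authors' units) at the 15 positions marked KO in all 5 tables, each row a position named by its chromosome and nearest listed gene start, each symbol a library, with the grey line joining the lowest and highest. All heats lie between 8.63 and 28.6, and the B6/SPRT and B6/STUS symbols hold the lowest value in each row.

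The strongest of these 15 by heat percentile was on chromosome 10 at 122162095, 42.5 kb from the start of Gm4489 and between genes. Its heat was 14.6 in B6/SPRT, 21.1 in Hum/SPRT, 20.1 in CAST/SPRT, 16.1 in B6/STUS and 28.6 in Hum/STUS. The next lay within Cntnap5b, a contactin-associated protein gene of neurons, at 100200712 on chromosome 1, with heats of 13.1, 23.6, 13.2, 19.6 and 22.6. Its DMC1 reads came from both homologs in the SPRT males, at 35.0% from B6 in B6/SPRT, 40.5% with the humanized allele and 32.1% with the CAST allele. The third lay within Agbl1, a gene for an enzyme that removes glutamate from protein tails, at 76332447 on chromosome 7, with heats of 8.63, 22.4, 17.99, 15.9 and 22.4. In contrast to the Cntnap5b position, 100% of its DMC1 reads were of B6 origin in all 3 SPRT libraries. The highest heat was 1.96 times the lowest at the first of these positions, 1.80 times at the second and 2.59 times at the third, the widest range of the 15.

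The next 9 positions in that order had heats between 9.12 and 20.6 and no B6 fraction in any library. The 4 stronger of them lay within the potassium channel gene Kcnh8 (chromosome 17, 52716518), near Gm34664 (chromosome 7, 68946926), 37.0 kb from Cxcl13, which encodes a B-cell chemokine (chromosome 5, 95993676), and within Trim30a, of the TRIM family of ubiquitin ligases (chromosome 7, 104456929). The others were nearest to the olfactory receptor gene Olfr1349 (chromosome 7, 6538201), the vomeronasal receptor gene Vmn2r37 (chromosome 7, 9194901), Gm15679 (chromosome 8, 98562787), Gm14066 (chromosome 2, 139263080) and within Skint5, of a family that selects skin T cells (chromosome 4, 113788362). Of the 12 named positions, 5 were on chromosome 7, which held 7 of all 102 positions and 3875 of the 71181 hotspots. The 12 were taken by heat percentile from the 15, and whether they cluster was not tested.

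H3K4me3 was low at most KO hotspots. The median enrichment over input was 1.21 in B6/SPRT, 0.514 with the humanized allele and 1.59 with the CAST allele, against 6.26, 5.04 and 28.4 at the other hotspots. The log2 differences were -2.37, -3.29 and -4.16, with a mean of -3.27 ± 0.90 (SD, n = 3 libraries), with p = 0.25 in the exact sign-flip permutation, the smallest that 3 libraries allow, and an adjusted p of 0.3. An enrichment under 1 was listed at 23 of 50 KO hotspots in B6/SPRT (all hotspots 0.777%), 58 of 75 with the humanized allele (3.22%) and 12 of 41 with the CAST allele (0.427%). The listed enrichment is not the plain ratio of the coverages. In Hum/SPRT a ChIP coverage of 7 over an input of 1 was listed as 0.618, and 3381 over 481 as 4.63. In CAST/SPRT a ChIP coverage of 0 over an input of 1 was listed as 2.07. A value under 1 therefore need not mean less ChIP than input, and its shares are not comparable between genotypes. The difference held among weak hotspots, since at heats under 20 the medians were 0.900, 0.396 and 1.48 for KO and 3.46, 2.89 and 20.6 for the other hotspots. At heats of at least 20 the mean log2 difference was -0.45 (p = 0.75, exact permutation), and it was -1.37 with means over hotspots in place of medians. Of 92 positions with H3K4me3 in at least 1 table, 71 (77.2%) were below 3 in each table that lists them.

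The input coverage of KO hotspots differed from that of other hotspots as well, at both ends. Its median was 12.5 in B6/SPRT, 11 with the humanized allele and 17 with the CAST allele, against 19, 26 and 28. An input of at most 5 was found at 13, 20 and 5 KO hotspots (all hotspots 0.151%, 0.407% and 0.0938%), and an input of at least 100 at 4, 6 and 3 (0.0378%, 0.172% and 0.073%). The few of high input held 83.5, 85.2 and 87.1% of all ChIP coverage at KO hotspots. Low and high input coverage were thus both more frequent at KO hotspots than over all hotspots, and their part in the heat and in the mark was not tested. Median ChIP coverage was 12, 18 and 4 at KO hotspots against 132, 285 and 163, so many of the enrichments rest on few reads.

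**Figure D4:**
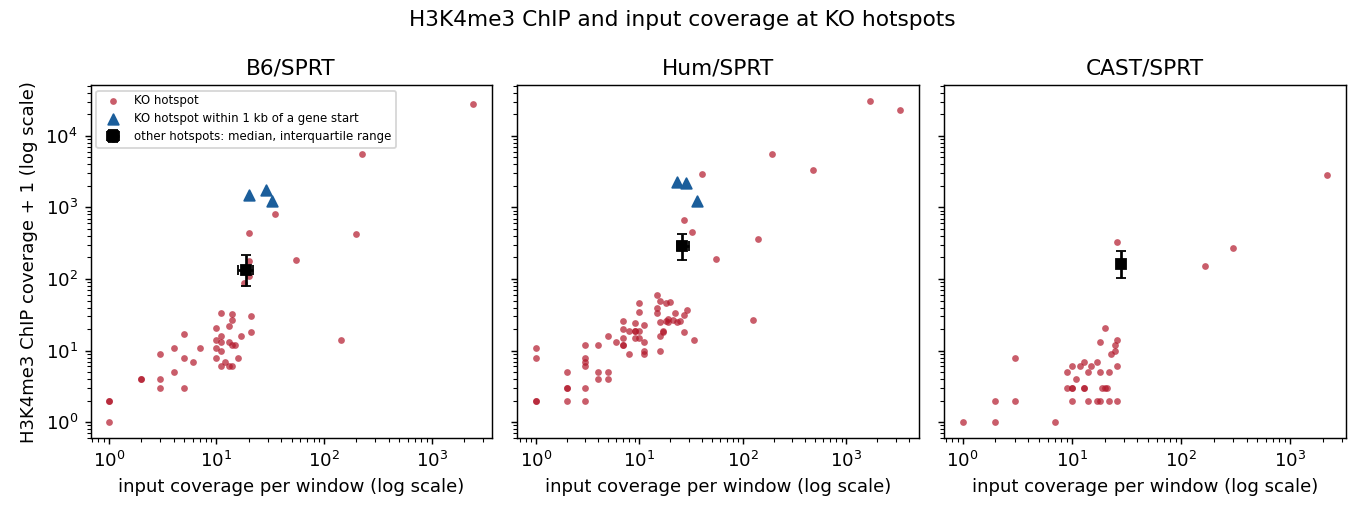
H3K4me3 ChIP coverage plus 1 (vertical, log scale) against input coverage (horizontal, log scale) of each KO hotspot in the 3 genotypes with H3K4me3, with triangles for hotspots within 1 kb of a gene start and a black square with bars for the median and interquartile range of the other hotspots. Most KO hotspots lie below and left of the square, 3 promoters in B6/SPRT and in Hum/SPRT lie above it, and 1 to 2 hotspots in each panel exceed an input of 1000.

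A small group of KO hotspots did have H3K4me3. An enrichment of at least 10 was listed at 7 KO hotspots in B6/SPRT (all hotspots 24.4%), 8 with the humanized allele (12.6%) and 3 with the CAST allele (92%), at 11 positions in all. Of these, 3 were the promoters of Scai, Lztfl1 and Fyco1, with Lztfl1 the highest in B6/SPRT and in Hum/SPRT, and 4 had an input coverage of at least 100. The Stxbp5 position was the highest in CAST/SPRT. The other 3 were chosen for description after their values were seen. Within Kmt2e, a gene of the trithorax family, the hotspot at 23435439 on chromosome 5 had an enrichment of 37.0 and was marked in Hum/SPRT alone. It lay 2.40 kb from an end of the gene and 2.10 kb from the listed start of 5031425E22Rik. On distal chromosome 9, the position near Gm51701 had an enrichment of 20.5 in B6/SPRT at 1.88 kb from that gene's start, with a heat of 45.1 there and of 95.2 in B6/STUS. Near Vmn2r37 the value of 10.4 in CAST/SPRT rests on a ChIP coverage of 7 over an input of 3. Beyond 1 kb of a listed start and without high input, H3K4me3 of this height was thus listed at 4 positions, 1 of them on few reads. Those in Kmt2e and near Gm51701 were still 2.10 and 1.88 kb from a listed start.

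Among the positions of high input, also chosen after their values were seen, was one over Rn18s-rs5, an 18S ribosomal RNA related sequence, on chromosome 17 at 39847776. Its input coverage was 2442 in B6/SPRT and 1682 in Hum/SPRT, its ChIP coverage 27921 and 30692, and its heat 43.3, 59.3 and, in B6/STUS, 45.9. None of its H3K4me3 reads carried a SNP in either SPRT library. Another lay at 3019113 on proximal chromosome 9, with inputs of 198 and 297, enrichments of 1.96 in B6/SPRT and 4.60 in CAST/SPRT and heats of 32.5 in B6/SPRT, 9.63 in CAST/SPRT, 35.6 in B6/STUS and 112 in Hum/STUS, the widest range of all positions (11.6 times). At 124255241 on distal chromosome 9, inputs of 144 and 126 went with enrichments of 0.085 in B6/SPRT and 0.0918 in Hum/SPRT, while its heats were 58.9, 30.2, 211 in B6/STUS and 31.4 in Hum/STUS. High input coverage thus occurred with both high and low enrichment.

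Across the KO hotspots of a library, heat went with input coverage more than it did elsewhere, and with enrichment less. Spearman's rho between them was 0.715 over the 50 of B6/SPRT, 0.619 over the 75 of Hum/SPRT and 0.378 over the 41 of CAST/SPRT, against 0.116, 0.164 and 0.074 over the other hotspots. Between heat and enrichment rho was 0.493, 0.469 and 0.067 at KO hotspots, against 0.629, 0.490 and 0.412 over the other hotspots. The hotspots compared come from 1 library and share its depth, so these values describe the libraries. Heat per unit of H3K4me3 enrichment was higher at KO than at other hotspots by 0.08, 1.59 and 3.02 on the log2 scale (mean 1.56 ± 1.47, SD, n = 3 libraries, p = 0.25 by exact sign-flip permutation, the smallest possible, adjusted p = 0.3). At heats of at least 20 the mean difference was 0.16. Median ChIP coverage at KO hotspots was 12, 18 and 4 in the same order, so many of these ratios divide by an enrichment that rests on few reads.

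Which homolog was broken could be read at few KO hotspots. A B6 fraction of DMC1 reads was listed for 13 of 50 in B6/SPRT (26.0%, all hotspots 74.1%), 11 of 75 in Hum/SPRT (14.7%, 75%), 7 of 41 in CAST/SPRT (17.1%, 75.5%), 13 of 59 in B6/STUS (22.03%, 90.8%) and 14 of 67 in Hum/STUS (20.9%, 87.8%). At 68 of the 102 positions none of the libraries had one. Hotspots cut on both homologs, with 25 to 75% of DMC1 reads from B6, are called matched. Of the KO hotspots with a fraction, 3 of 13 were matched in B6/SPRT (23.1%, all hotspots 29%), 3 of 11 in Hum/SPRT (27.3%, 33.6%), 1 of 7 in CAST/SPRT (14.3%, 32.7%), 5 of 13 in B6/STUS (38.5%, 34.2%) and 4 of 14 in Hum/STUS (28.6%, 46.5%). The mean difference between KO and other hotspots was -8.89 percentage points ± 9.50 (SD, n = 5 libraries), within the spread between libraries (p = 0.125, exact two-sided sign-flip permutation, adjusted p = 0.3). Against the hotspots without an assigned allele alone it was 3.49 points. With a matched range of 40 to 60% it was -12.8 points (p = 0.0625, exact permutation, the smallest possible). With missing fractions counted as unmatched it was -23.4 points (p = 0.0625, exact permutation). That setting cannot speak for matching. Fractions were listed for 14.7 to 26.0% of KO hotspots and 74.1 to 90.8% of all hotspots, which by itself lowers the KO share. The number of reads behind each fraction is unknown.

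**Figure D5:**
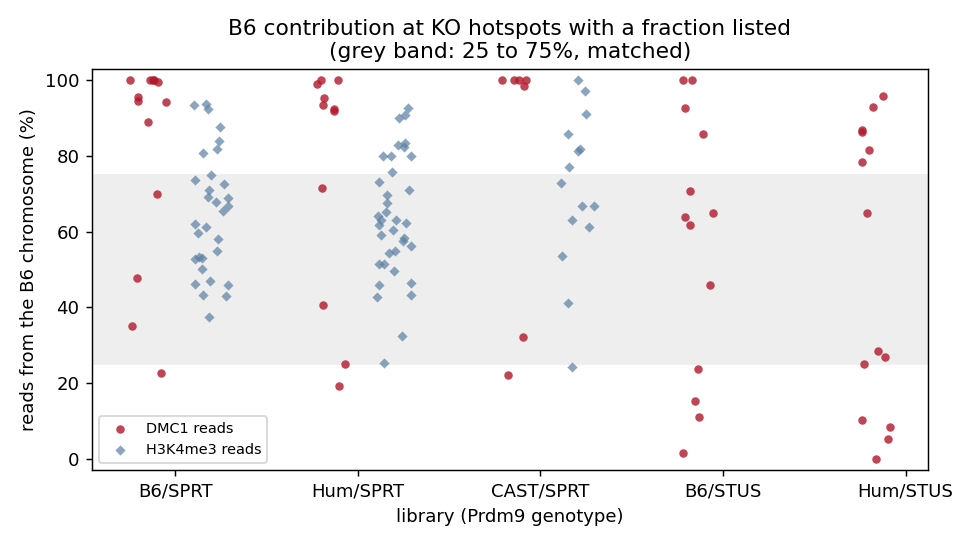
Percent of reads from the B6 chromosome at each KO hotspot with a listed fraction, by library, from DMC1 (red points) and, in the 3 SPRT genotypes, H3K4me3 (blue diamonds), with the matched range of 25 to 75% shaded. DMC1 points gather near 100% in the SPRT libraries, where 21 of 31 exceed 75%, and spread to both ends in the STUS libraries, where 10 of 27 do.

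One-sided KO hotspots were more often on B6 than on SPRT in the SPRT males. More than 75% of DMC1 reads came from B6 at 9 of 13 in B6/SPRT (all hotspots 46.5%), 7 of 11 with the humanized allele (49.5%) and 5 of 7 with the CAST allele (52.4%), together 21 of 31 (67.7%, other hotspots of the cross 48.9%). Less than 25% came from B6 at 3 of the 31 (9.68%, other hotspots 19.7%), all of them at 1 position. Hotspots of the SPRT allele leaned the same way, with 59.7, 59.0 and 71.1% of them over 75% in the 3 libraries, against 69.2, 63.6 and 71.4% of the KO hotspots. In the STUS males it was 4 of 13 in B6/STUS (34.8%) and 6 of 14 in Hum/STUS (36.1%), together 10 of 27 (37.0%, other hotspots 35.3%), with 8 below 25% (29.6%, other hotspots 26.1%). Part of the 31 and of the 27 are repeats of 1 position in several libraries. Within a cross, where the same position had a fraction in more than 1 library, the values lay close together, with a median spread of 6.04 percentage points over 17 such cases, 12 of them within 10 points and the widest 25.2.

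The lowest B6 fractions were seen again in other males of the cross at 2 of 3 positions. The lowest B6 fraction of the SPRT libraries was in each of them at 118578574 on chromosome 2, near Bub1b, which encodes a spindle checkpoint kinase, with 22.7% in B6/SPRT, 19.2% with the humanized allele and 22.2% with the CAST allele. The lowest of B6/STUS, 1.54%, was at 5860667 on chromosome 3, 246 kb from the start of Gm46796. Hum/STUS had 8.51% there, so breaks at this position were on the STUS homolog in both males. In the SPRT males this position had H3K4me3 enrichments of 22.1 and 18.4 at inputs of 227 and 190. The lowest of Hum/STUS, 0%, was on chromosome 13 at 22551471 near the vomeronasal receptor gene Vmn1r204, and no other library listed a fraction there. At the other end, 100% was reached by 4 KO hotspots of B6/SPRT, 2 of Hum/SPRT, 4 of CAST/SPRT and 2 of B6/STUS. Among these ties were the Stxbp5 position in B6/SPRT and the Agbl1 position in the 3 SPRT libraries. Another was at 15179004 on chromosome 11, 580 kb from the start of Pom121l12, in CAST/SPRT and B6/STUS. The highest of Hum/STUS was 95.8%, at 25410842 on chromosome 6, 227 kb from the start of Gm30658.

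Fractions were available in both crosses at 3 positions, and at these B6 was the major homolog. At the position 580 kb from the start of Pom121l12 they were 95.5% in B6/SPRT, 100% in CAST/SPRT and B6/STUS and 86.2% in Hum/STUS. At 47613897 on chromosome 12 they were 100% in Hum/SPRT and CAST/SPRT and 92.9% in Hum/STUS. The nearest listed start there, 795 kb away, was that of Nova1, which encodes an RNA-binding splicing factor of neurons. At 124255241 on distal chromosome 9 they were 70.0% in B6/SPRT, 95.2% in Hum/SPRT, 63.9% in B6/STUS and 78.4% in Hum/STUS. B6 supplied the larger share of reads in each of these libraries.

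KO hotspots were matched more often by H3K4me3 than by DMC1, and so were all hotspots. By DMC1 the matched share was 23.1% of 13 KO hotspots in B6/SPRT, 27.3% of 11 with the humanized allele and 14.3% of 7 with CAST. Over all hotspots with a DMC1 fraction it was 29, 33.6 and 32.7%. More KO hotspots had a fraction by H3K4me3, so the assays were not compared over the same hotspots. An H3K4me3 fraction was listed at 31 KO hotspots of B6/SPRT, 36 of Hum/SPRT and 15 of CAST/SPRT, with median B6 contributions of 65.4, 62.6 and 72.7%. Of these, 24 (77.4%, all hotspots 56.5%), 26 (72.2%, 55.1%) and 7 (46.7%, 47.8%) were matched. The difference from the other hotspots averaged 12.4 percentage points ± 11.8 (SD, n = 3 libraries) and was within the spread between libraries (p = 0.5, exact two-sided sign-flip permutation, where 0.25 is the smallest possible, adjusted p = 0.5). These fractions rested on medians of 32, 53.5 and 17 SNP-carrying reads, against 209, 455 and 271 at other hotspots with a fraction, and the lowest numbers at KO hotspots were 12, 10 and 11. Many KO hotspots had no fraction, with no SNP-carrying read at 13 (all hotspots 0.378%), 35 (0.935%) and 16 (0.553%) KO hotspots. Median enrichment at KO hotspots was 1.21, 0.514 and 1.59, and the part of background reads in these fractions was not tested.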

How the data were processed

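Each genotype has a hotspot table made by the authors from DMC1 SSDS (1 library each) and, for the SPRT genotypes, H3K4me3 ChIP and input. The authors identified single-stranded fragments, called hotspots, named the PRDM9 allele of each by comparing positions with those of other mice, and split reads between homologs with SNPs. The labels name BWA and mm10. The deposited DMC1 heat is a signal whose scaling is not stated. The deposited B6 fraction of reads has no depth for DMC1. The deposited ChIP and input coverages are whole-number counts, taken as pooled over samples. The deposited enrichment over input has a formula that is not stated, and it is not the plain ratio of these coverages. A further 13 columns (p-values, sharing) were not used. Tables were matched to genotypes by the alleles and totals they hold.

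KO hotspots were counted on the 19 autosomes and joined across tables at centers within 500 bp. Gene starts and promoters are RefSeq GRCm38.p6. For 6 measures the KO minus other difference of each library was tested by exact two-sided sign-flip permutation over libraries with Benjamini-Hochberg adjustment. Intervals are 95% Wilson and cover counting error only. Members and lists were chosen with earlier results of these data known. Named positions were the 12 in most tables (ties by mean heat percentile) and, per table, the highest heat and enrichment and the extremes of the B6 fraction. A position called near a gene is named by the nearest listed start, which can be far away unless a distance is given. Alternatives changed distances, the matched range, heat limits, the comparison class and the libraries. Python 3.11.15, numpy 2.4.6, pandas 2.3.3, scipy 1.17.1 and matplotlib 3.10.9 were used, and the computations were tested on simulated data.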

Additional observations from a re-analysis of the deposited data

How the results depend on the processing

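Of 73 recomputed values, 5 reversed direction and 6 counts or shares moved. No difference could pass 0.05 under any setting, as 5 libraries cannot go below 0.0625 and 3 not below 0.25, so only the direction and size of a difference could change. The matched share by DMC1 turned to 3.49 points against hotspots without an assigned allele. The difference in the share near gene starts turned to -0.17 within 2 kb and -2.07 without recurring positions, and, in alternatives chosen after seeing the data, to -1.16 at heats under 20 and -2.04 with either end of any listed gene. The share of KO hotspots recurring was 86.8% within 250 bp and 87.2% at heats of at least 20 in every table. Within 1000 bp it was 94.6%, which was not counted as moved. The number of KO hotspots was 59 at heats of at least 20 and 102 with each position counted once. The cause of these changes was not tested, other than that fewer hotspots enter. At heats of at least 20 the log2 difference in heat was -0.54 and that in heat per enrichment 0.16. At heats under 20 the matched difference by DMC1 was -22.0 points, on few hotspots. Matched were 2 of 8 KO hotspots with a fraction in B6/SPRT, 2 of 5 in Hum/SPRT and 1 of 6 in CAST/SPRT. In the other cross they were 0 of 5 in B6/STUS and 1 of 6 in Hum/STUS.

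Leaving out 1 library at a time gave log2 differences of -1.76 to -1.43 for heat, -3.73 to -2.83 for H3K4me3 enrichment and 0.83 to 2.30 for heat per enrichment. It gave -12.2 to -6.49 points for the matched share by DMC1, 8.03 to 19.1 for that by H3K4me3, 0.81 to 2.29 for the share near gene starts, and a recurring share of 85.1 to 90.5%. Heat per enrichment fell to 0.83 without CAST/SPRT, the matched share by H3K4me3 was 19.1 without CAST/SPRT and 8.03 without B6/SPRT, and the share near gene starts was 2.29 without CAST/SPRT. No paired analysis was possible because, beyond the differences taken within each library, replicates cannot be paired between genotypes: the tables hold 1 DMC1 library and 1 pooled H3K4me3 column per genotype, without replicate numbers. Depth limits the H3K4me3 values of KO hotspots, whose median ChIP coverage was 4 to 18, and the B6 fractions, which exist for few of them.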

Other observations

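The mark KO was also given on the X chromosome, where male meiosis has no homolog to pair with outside the pseudoautosomal region. There 81 of 3146 hotspots in the 5 tables were KO (2.57%), against 0.410% on the autosomes. By library the X-linked share was 2.21% in B6/SPRT, 2.38% in Hum/SPRT, 1.21% in CAST/SPRT, 3.16% in B6/STUS and 3.85% in Hum/STUS. The median heat of the X-linked KO hotspots was 26.1, 14.4, 11.1, 32.1 and 19.1 in the same order.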
